A study of Mus musculus with 6 samples.

Results

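The noncoding RNAs described here are the transcripts that RefSeq lists under a noncoding prefix, NR_ for curated and XR_ for predicted records, selected on their mean level, at least 5 TPM over 6 libraries (TPM is the deposited measure of transcript abundance, corrected for transcript length and library total). H19, Neat1, Malat1, Meg3, Rian and Mirg were left out by name, and 4 of these 6 would otherwise have passed. Of 34671 RefSeq accessions in the files, 12792 carried a noncoding prefix, 273 of those reached the mean of 5 TPM, and 269 remained, 166 with the prefix NR_ and 103 with XR_. A gene name was found for 192 of the 269, and the other 77 are described only by counts. The rule used the mean level over both genotypes and not the difference between them. Still, 15 members had a mean under 5 TPM in the knockout libraries only and 7 in the control libraries only, so these passed through the group in which they were higher. Among the former are E130307A14Rik, Gm30520, Snord82, D930016D06Rik, 2210408F21Rik and Rps4l, and among the latter Gm31271 and Gm35113.

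The libraries came from primary myoblasts, the proliferating precursor cells of skeletal muscle fibres, grown out of the skeletal muscle of male mice aged 1 month. Expansion used F-10 with 20% fetal bovine serum and the growth factor bFGF; the cells were then kept for 4 days in 2% horse serum, which drives them to fuse into myotubes, and polyA RNA was sequenced. The knockout group (3 libraries, labelled SFPQ_KO) was from mice that lack Sfpq in skeletal muscle, written SfpqSM-KO in the labels, and the control group (3 libraries, labelled Cont) was grown and differentiated in the same way. The labels name neither the Cre driver nor the genotype of the controls. The labels do not say that the libraries of a group came from different mice or cultures, and p-values therefore reflect library-to-library spread that may be technical. Read depth is unknown, because TPM does not keep it.

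Most long noncoding RNAs are spliced and polyadenylated like messenger RNAs but do not encode a long protein. Small nucleolar RNA (snoRNA) host genes are a special class: their introns are cut into snoRNAs, which guide the chemical modification of ribosomal RNA, while the spliced host RNA is often short-lived. Other noncoding transcripts are precursors of microRNAs, processed pseudogenes of abundant messenger RNAs, or small structured RNAs such as 7SK and 7SL, which RNA polymerase III transcribes and which normally carry no polyA tail. The protein SFPQ binds RNA in the nucleus and is a core part of the paraspeckle, a body built on the noncoding RNA Neat1.

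Sfpq itself was at 18.3, 19.3 and 14.1 TPM in the knockout libraries and at 48.6, 60.5 and 49.9 TPM in the control libraries, so the libraries matched their labels while some Sfpq RNA remained. Markers of differentiated muscle were abundant in every library, with a summed level of 80733 to 84906 TPM in knockout and 69034 to 74706 TPM in control over 10 genes, all of them detected. Of other cell types, 7 fibroblast genes summed to 155 to 217 TPM in knockout and 197 to 296 TPM in control, 4 smooth muscle genes to 633 to 835 and 513 to 1170 TPM, 5 myoblast or satellite cell genes to 898 to 993 and 585 to 1016 TPM, and 5 cycling-cell genes to 45.0 to 50.4 and 56.6 to 64.8 TPM. The smooth muscle sums were mostly Acta2 (mean 749 TPM), with Lmod1, Cnn1 and Myh11 at means of 6.02, 0.306 and 0.0352 TPM. The myoblast sums were mostly Myod1 and Cdh15, whose means were higher in knockout. Pax7, Myf5 and Vcam1 had lower means in knockout, and the groups overlapped for all 5. Each library's sums over the adipocyte, endothelial, macrophage and Schwann cell genes were at most 1.46 TPM, with Cfd, Emcn, Adgre1 and C1qa listed at 0 in all libraries. The sums of the muscle and cycling-cell genes did not overlap between the groups, while those of the fibroblast genes did. The muscle sums were mostly Acta1 and Mylpf, which with Des were higher in every knockout library. The groups of the other 7 muscle genes overlapped, and 4 of the 10 had log2 differences below 0. The cycling-cell sums were mostly Pcna, which overlapped, while Mki67 and Ccnb1 were lower in every knockout library. The fibroblast sums were mostly Col3a1, which overlapped, while Col1a1 and Pdgfra were lower in every knockout library. The part of these levels in the results below was not tested. In bulk RNA, fewer cells of a type and less RNA per cell cannot be told apart.

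The 269 noncoding members together held 0.879% to 0.955% of TPM in a library, against 1.81% to 3.88% for the 6 transcripts left out. Their mean levels ranged from 5.02 to 936 TPM with a median of 14.1 TPM. A fixed list of names gave 16 snoRNA host genes. By the gene tables, 55 further members were pseudogenes, 6 small structured RNAs and 108 other long noncoding RNAs. Another 5 belonged to protein-coding genes and 2 were of miscellaneous type. The members just inside the threshold were 1 unnamed accession at 5.02 TPM, 4933439C10Rik at 5.03 TPM and E130307A14Rik at 5.04 TPM. Just outside were 1 unnamed accession at 4.99 TPM, the imprinted antisense transcript Airn at 4.88 TPM and Gm49890 at 4.88 TPM.

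Across the whole set, differences between knockout and control were small and mostly within the spread of the libraries. On log2(TPM + 1), the scale of every log2 difference given here, 164 members were below 0 and 105 above 0 in knockout relative to control. The median difference was -0.06, beside -0.07 over all 12464 accessions tested, of which 64.5% were below 0. With TPM rescaled by median-of-ratios, 126 of the 269 members were below 0, and with quantile normalization 129 were, so the surplus of lower values rests on the deposited scale. No member passed the test in either direction (limma, Benjamini-Hochberg adjusted p under 0.05 over all tested accessions), where the share of all accessions called was 0% in both directions. At an unadjusted p under 0.05, 23 members were lower and 14 higher in knockout, beside 9.62% and 2.68% of all accessions.

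All 3 knockout libraries lay below all 3 control libraries for 27 members (10.04%), beside 15.3% of all tested accessions, and above them for 15 members (5.58%), beside 4.27%. Among the 247 members with a mean of at least 5 TPM in both groups, 17 were separated downwards and 10 upwards. The balance turned with scaling: 19 members were separated downwards and 21 upwards with median-of-ratios scaling, and 17 and 26 with quantile normalization. Of all tested accessions, 48.5% and 49.7% were below 0 with these scalings, beside 64.5% on the deposited scale. Separated groups were not counted over all accessions after rescaling, so the turn cannot be called particular to the members. By prefix, 20 of 166 NR_ members were separated downwards and 5 upwards, while 7 of 103 XR_ members were separated downwards and 10 upwards. The difference between these prefixes was not tested.

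**Figure D1:**
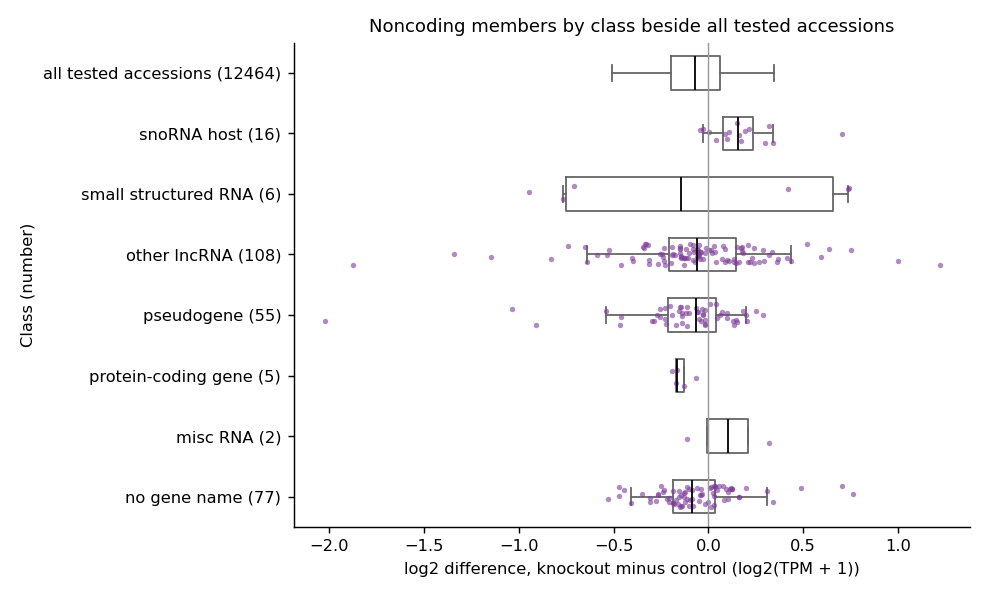
Log2 difference on log2(TPM + 1), knockout minus control, for each noncoding member (points) by class beside all 12464 tested accessions; boxes span the quartiles, lines mark medians and whiskers run from the 5th to the 95th percentile. The snoRNA host genes have a median of 0.16, and the other named classes of more than 10 members have medians of -0.06 and -0.07.

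Of the 16 snoRNA host genes, 14 had a log2 difference above 0 and 2 below, with a median of 0.16 that was 0.083 without SFPQ_KO replicate 1. Their summed level was 395.6, 352.6 and 376.8 TPM in the knockout libraries and 346.1, 331.4 and 339.0 TPM in the control libraries, so the groups did not overlap but lay close together, 352.6 TPM being the lowest knockout and 346.1 TPM the highest control value. None of the 16 passed the adjusted test, and 3 of 16 had all knockout libraries above all control libraries, beside 4.27% of all tested accessions. The wider list of hosts by name had 22 tested genes, including those under 5 TPM and the protein-coding record D17H6S56E-5. Of these, 16 were above 0 and 6 below, with a median of 0.13. By annotated spans, 19 members hold a snoRNA, and 15 of them are on the list of names. Those not on it were Gm32899 (-0.26), 1700120C14Rik (-0.05), Gm34865 (0.27) and Rab26os (0.14), each with overlapping groups. Snhg20 is on the list but has no annotated snoRNA in its span.

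Snhg18, the host of Snord123, stood at 7.32, 11.1 and 11.0 TPM in knockout and 5.83, 6.34 and 4.54 TPM in control. Every knockout library was above every control library, and the log2 difference was 0.71 ± 0.19 (SE, n = 3 per group, limma adjusted p = 0.264). Snhg7, which holds Snora43 and Snora17, was at 8.05, 8.61 and 8.23 TPM in knockout and 6.44, 6.73 and 5.86 TPM in control, again without overlap (0.34 ± 0.10, limma adjusted p = 0.301). Epb41l4aos, named as the opposite-strand transcript of Epb41l4a, was at 14.1, 16.9 and 17.2 TPM in knockout and 13.1, 12.4 and 12.5 TPM in control (0.32 ± 0.11, limma adjusted p = 0.336). Those are the 3 hosts whose groups did not overlap. Epb41l4a itself was lower, at 0.988, 0.465 and 0.540 TPM in knockout and 1.73, 1.40 and 2.15 TPM in control, so the genes of this pair, whose annotated spans do not overlap, differed in opposite directions.

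The most abundant hosts overlapped between genotypes. The highest, 2410006H16Rik, whose span holds Snord49b, Snord49a and Snord65, was at 93.6, 79.0 and 89.2 TPM in knockout and 83.2, 74.7 and 84.9 TPM in control (0.11). Snhg6, the host of Snord87, was at 55.6, 51.2 and 53.9 TPM in knockout and 64.3, 39.7 and 48.9 TPM in control, with the control libraries on both sides. Snhg1, with 8 snoRNAs in its span, was at 45.3, 39.0 and 51.0 TPM in knockout and 33.0, 49.3 and 45.7 TPM in control.

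Gas5 also holds 8 snoRNAs and is a standard example of a host RNA kept low by nonsense-mediated decay, a pathway that removes RNAs translated to an early stop codon. It was at 15.3, 12.9 and 15.2 TPM in knockout and 12.9, 15.9 and 16.1 TPM in control, a difference of -0.04 that became 0.034 and 0.041 with the median-of-ratios and quantile scalings. Snhg3 (-0.03) likewise turned to 0.048 and 0.073 with those scalings. Snhg4 (0.30), Snhg5 (0.21), Snhg20 (0.19), 1110038B12Rik (0.17), Snhg8 (0.16), Snhg16 (0.15), Snhg12 (0.04) and Snhg15 (0.0038) all had knockout and control libraries that overlapped.

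**Figure D2:**
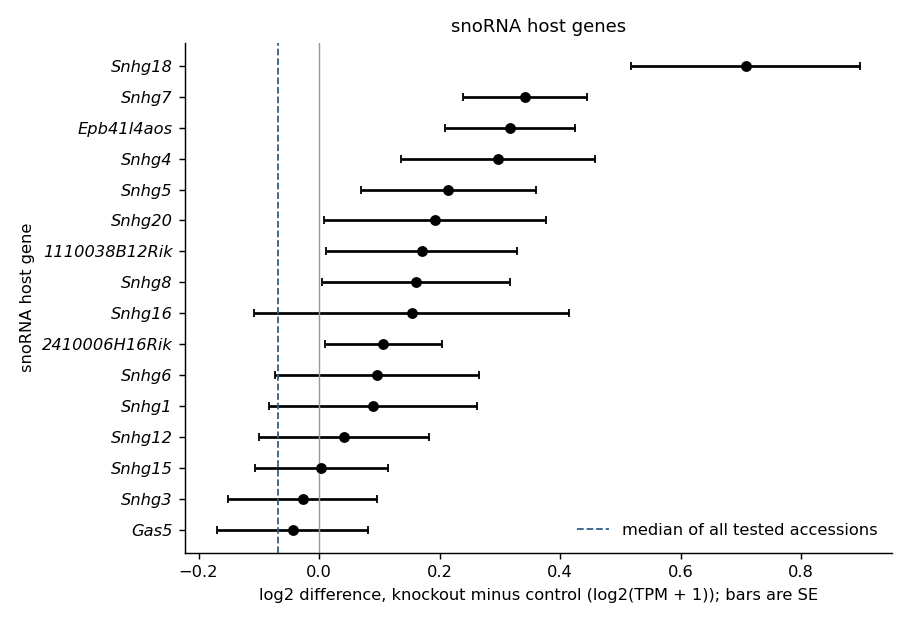
Log2 difference on log2(TPM + 1), knockout minus control, of the 16 snoRNA host genes; points are limma estimates over 3 libraries per group, bars are standard errors, and the dashed line is the median of all tested accessions (-0.07). Snhg18 stands highest at 0.71 and Gas5 lowest at -0.04.

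Host genes of snoRNAs are known for a pyrimidine tract at the first transcribed base, a feature shared with ribosomal protein genes that ties translation to growth signals. The sequences at the gene starts are shown for Snhg18 and Snhg7, the hosts with the largest log2 differences, for Snhg12 and Gas5, with differences near 0, and for the abundant hosts Snhg1 and 2410006H16Rik. The choice of members did not use this feature. Gas5 has 2 listed starts, and both are given. Each runs from 20 bases before to 25 bases from the annotated start (RefSeq, GRCm38.p6, gene strand). Capitals mark a C followed by at least 4 bases of C or T, beginning 3 bases before to 10 after the start. Runs that begin outside this window are in small letters.
Snhg18, chr15:32244638-32244682, minus strand: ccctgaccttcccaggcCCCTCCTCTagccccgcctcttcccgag
Snhg7, chr2:26640220-26640264, minus strand: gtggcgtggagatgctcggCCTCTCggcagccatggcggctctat
Snhg12, chr4:132308658-132308702, plus strand: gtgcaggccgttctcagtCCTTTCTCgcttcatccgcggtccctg
Gas5, first start, chr1:161034581-161034625, plus strand: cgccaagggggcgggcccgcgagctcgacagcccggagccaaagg
Gas5, second start, chr1:161035146-161035190, plus strand: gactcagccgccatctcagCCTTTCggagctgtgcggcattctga
Snhg1, chr19:8723467-8723511, plus strand: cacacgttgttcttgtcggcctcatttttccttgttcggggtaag
2410006H16Rik, chr11:62602857-62602901, plus strand: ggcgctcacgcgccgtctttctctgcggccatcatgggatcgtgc

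A tract of this kind, beginning between 3 bases before and 10 bases after the start and searched on the gene strand only, was found at 9 of the 13 snoRNA hosts with an entry in the RefSeq promoter table (69.2%). It was found at 39 of the 104 members with an entry (37.5%) and at 6111 of 27025 genes in the table (22.6%). A gene with several listed starts was counted if any of them had the tract, as for Gas5, whose second start has it and whose first does not. Snhg1 and 2410006H16Rik have no match by these letters in this window. In 2410006H16Rik a run of C and T crosses the start but begins just ahead of the window. Of the hosts shown, Snhg18 and Snhg7 have the tract. So do Snhg12 and the second start of Gas5, whose log2 differences were 0.04 and -0.04. Snhg15 (0.0038) and Snhg20 (0.19), like Snhg1 and 2410006H16Rik, have no match. Epb41l4aos is not among the hosts with an entry. A relation between the tract and the differences was not tested.

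Proteins that make snoRNA particles or degrade their host RNAs were looked at beside the hosts. Of 21 tested genes for snoRNP proteins and their assembly, 14 were below 0 (median -0.06), none passed the adjusted test in limma, and 2 were lower and 0 higher at an unadjusted p under 0.05. Over all tested accessions 64.5% were below 0, and 9.62% were lower and 2.68% higher at that p, which is the background for this list and for the decay and exosome lists that follow. The lower ones were Pih1d1, of the R2TP assembly complex (-0.21), and Tgs1, which hypermethylates the caps of small nuclear and nucleolar RNAs (-0.26). Dkc1, the pseudouridine synthase of the H/ACA particle, was at 15.0, 15.0 and 14.4 TPM in knockout and 16.9, 19.9 and 15.4 TPM in control (-0.21).

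Of 18 tested genes of nonsense-mediated decay, 12 were below 0 (median -0.05), none passed the adjusted test in limma and 2 were lower at an unadjusted p under 0.05. Smg6, the endonuclease of the pathway, was at 12.8, 13.5 and 12.6 TPM in knockout and 15.8, 18.1 and 15.9 TPM in control (-0.33), without overlap. Magohb, of the exon junction complex, differed by -0.41 with overlapping libraries. Among 20 tested genes of the nuclear exosome, 10 were below 0, 0 passed the adjusted test, with 2 lower and 1 higher at an unadjusted p under 0.05. Zcchc7, of the TRAMP complex that feeds RNA to the exosome, was at 7.78, 7.54 and 7.44 TPM in knockout and 9.67, 10.4 and 9.96 TPM in control (-0.36). Rbm7, of the nuclear exosome targeting complex, differed by -0.23, and the exosome subunit Exosc6 by 0.48 with overlapping libraries.

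Of 16 tested proteins that bind nuclear noncoding RNAs, Sfpq among them, 8 were below 0 and 8 above. Pspc1, the paralogue and paraspeckle partner of SFPQ, was at 30.8, 30.5 and 27.8 TPM in knockout and 18.1, 13.4 and 15.4 TPM in control (0.89 ± 0.12, limma adjusted p = 0.0938). All 3 knockout libraries were above all 3 control libraries.

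E130307A14Rik was the long noncoding RNA with the clearest separation, and it had been singled out by earlier results of these data, so its difference is given as a description. It was at 2.315, 2.504 and 2.405 TPM in the knockout libraries and 8.48, 7.74 and 6.78 TPM in the control libraries, which is 3.18-fold higher in control. The 3 knockout libraries were nearly alike and lay far below all control libraries, with a log2 difference of -1.34 ± 0.12 (SE). Its mean of 5.04 TPM reached the threshold only through the control libraries. The gene covers 110.6 kb at chr10:39621411-39732007 (GRCm38.p6, minus strand).

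On the opposite strand, E130307A14Rik overlaps Traf3ip2, an adaptor of interleukin-17 signalling, and the start of Rev3l, the catalytic subunit of DNA polymerase zeta. Traf3ip2 was at 2.52, 2.85 and 4.02 TPM in knockout and 1.43, 1.32 and 1.96 TPM in control, so its knockout libraries were all above the control libraries (0.68 ± 0.18, limma adjusted p = 0.266). Rev3l was at 6.05, 5.32 and 5.85 TPM in knockout and 6.97, 7.79 and 6.48 TPM in control (-0.26). The 3 overlapping genes thus differed in unlike directions, and no source used here says whether reads were counted by strand.

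2610035D17Rik, also singled out earlier, had a mean of 3.50 TPM and is not a member. It was at 2.04, 1.71 and 1.38 TPM in knockout and 4.66, 5.38 and 5.85 TPM in control, 3.10-fold higher in control, with a log2 difference of -1.22 ± 0.15 (SE). All knockout libraries were below all control libraries. It spans 157.9 kb at chr11:113043906-113201838 (minus strand), so it too is a long transcription unit.

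Of the members with a known span, 5 covered 100 kb or more, and 3 of these 5 were separated downwards, beside 26.1% of the 1416 tested accessions of that span. E130307A14Rik and 2210408F21Rik, 2 of the 3, reached the mean of 5 TPM only through the control libraries, and of the other 3 long members 1 was separated downwards, so the count is no support for a difference by span. 2210408F21Rik (117.0 kb) was at 3.95, 4.11 and 6.26 TPM in knockout and 9.64, 6.35 and 9.98 TPM in control, separated by a narrow gap (-0.74 ± 0.22, limma adjusted p = 0.294). 2900079G21Rik (114.6 kb) was at 5.81, 4.21 and 5.70 TPM in knockout and 8.60, 6.05 and 9.65 TPM in control (-0.53 ± 0.19, limma adjusted p = 0.357). Brip1os (103.1 kb) differed by -0.13, with overlapping libraries.

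Mir100hg, the longest member at 238.7 kb, went the other way. It was at 23.5, 14.6 and 15.1 TPM in knockout and 11.3, 14.9 and 16.2 TPM in control, a difference of 0.29, with 1 knockout library above the rest and the others among the controls. Of the 186 members shorter than 100 kb, 18 were separated downwards and 10 upwards, beside 14.04% and 4.52% of all 10543 tested accessions shorter than 100 kb. Gm30520, at 44.6 kb, had a log2 difference further below 0 than any of the 5 long ones. It too reached the mean of 5 TPM only through the control libraries, and a relation to span was not tested.

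**Figure D3:**
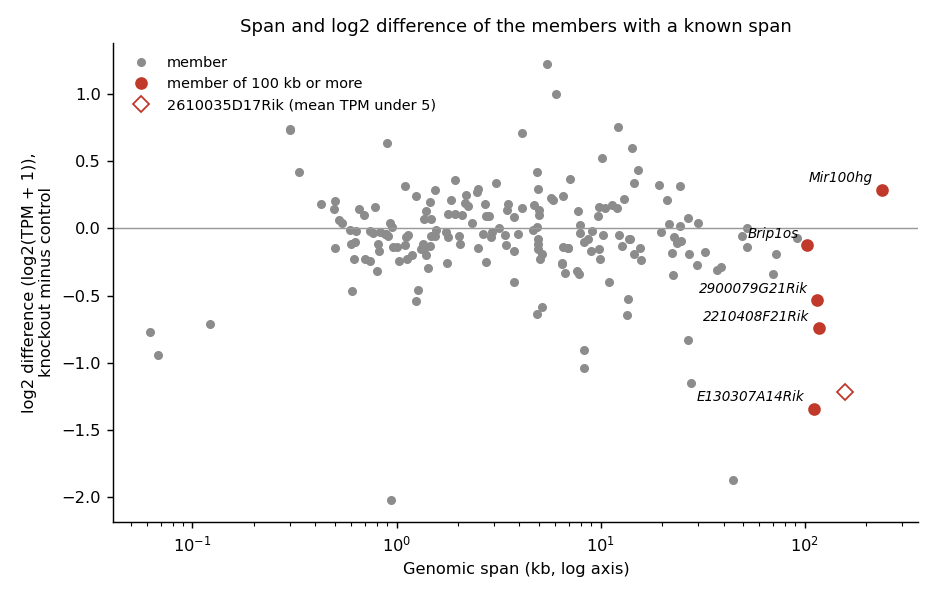
Log2 difference on log2(TPM + 1), knockout minus control, against genomic span (log axis) for the 191 members with a known span, with members of 100 kb or more in red and 2610035D17Rik, under the threshold, as an open diamond. E130307A14Rik lies at -1.34 and Mir100hg, the longest, at 0.29.

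Gm30520 had the largest log2 difference among members whose unadjusted p was under 0.01. It was at 1.27, 3.57 and 0.933 TPM in knockout and 10.6, 7.98 and 8.51 TPM in control, with no overlap (-1.88 ± 0.32, limma adjusted p = 0.137). Srrm4os, which overlaps the neuronal splicing factor gene Srrm4 on the opposite strand, was at 7.49, 7.04 and 7.33 TPM in knockout and 13.3, 11.1 and 17.4 TPM in control (-0.83 ± 0.16, limma adjusted p = 0.163). Srrm4 was at most 0.373 TPM in 5 libraries and at 2.92 TPM in 1 knockout library, too low to be tested.

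Smaller separations downwards were seen for Ube2d-ps (-0.35), D930016D06Rik (-0.46) and the pseudogene Gm5523 (-0.54), each with limma adjusted p between 0.251 and 0.283. Oip5os1, known as Cyrano and for directing the decay of the microRNA miR-7, was at 51.3, 42.4 and 48.0 TPM in knockout and 55.7, 55.6 and 59.0 TPM in control (-0.26), also without overlap.

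In the other direction, Gm31271 was at 9.98, 9.53 and 6.73 TPM in knockout and 2.62, 2.49 and 4.58 TPM in control (1.22 ± 0.23, limma adjusted p = 0.154). Gm35113 was at 7.77, 8.16 and 8.58 TPM in knockout and 3.81, 6.04 and 3.73 TPM in control (0.76 ± 0.18, limma adjusted p = 0.209). Gm36495 was at 26.9, 14.2 and 10.5 TPM in knockout and 8.74, 7.61 and 6.22 TPM in control, where 1 knockout library was well above the other two (1.00 ± 0.32, limma adjusted p = 0.32). These 3 named long noncoding RNAs had no overlap between groups.

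Gm45928, the most abundant of the members separated upwards, was at 200.2, 218.8 and 222.9 TPM in knockout and 157.9, 170.5 and 185.3 TPM in control (0.32 ± 0.09, limma adjusted p = 0.283). Gm33190 (0.60) and Gm34804 (0.52) were also higher in all knockout libraries, as was 1 unnamed accession with a difference of 0.34.

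**Figure D4:**
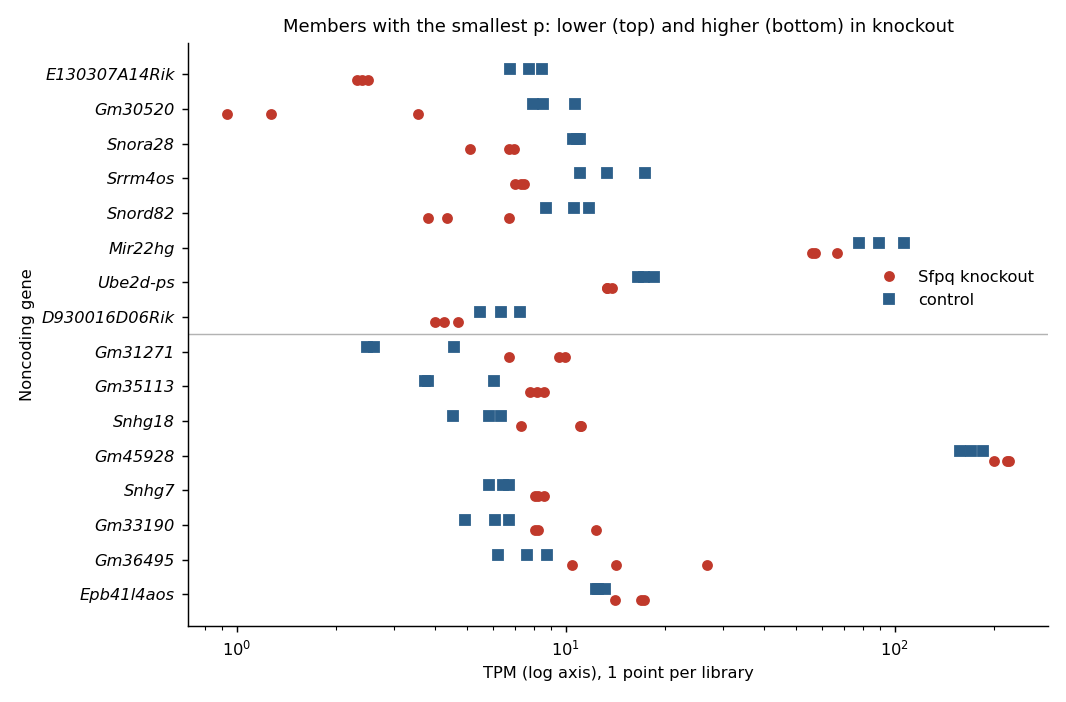
TPM in each library (log axis) of the 8 members with the smallest p among those lower in knockout (top) and the 8 among those higher (bottom), with red circles for knockout and blue squares for control. In each row the groups do not overlap, from E130307A14Rik at 2.31 to 2.50 TPM in knockout against 6.78 to 8.48 TPM in control to Gm45928 at 200.2 to 222.9 against 157.9 to 185.3 TPM.

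Hosts of microRNAs differed among themselves. These genes carry a microRNA hairpin in their transcript, which is cut out in the nucleus, so the level of the host RNA and of the mature microRNA need not be alike, and mature microRNAs were not measured here. Of the 6 members with a microRNA in their span, mature sequences from RefSeq (GRCm38.p6) are given for Mir22hg, Lincmd1 and Mir100hg, 1 arm per hairpin, with the seed, bases 2 to 8, in capitals, because the seed decides which messenger RNAs a microRNA pairs with. The others are Snhg4, Snhg20 and Gm38431.
miR-22-3p, in Mir22hg, chr11:75463772-75463793, plus strand: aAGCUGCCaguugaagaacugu
miR-206-3p, in Lincmd1, chr1:20679055-20679076, plus strand: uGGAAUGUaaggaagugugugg
miR-133b-3p, in Lincmd1, chr1:20682834-20682855, plus strand: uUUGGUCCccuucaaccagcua
miR-100-5p, in Mir100hg, chr9:41531437-41531458, plus strand: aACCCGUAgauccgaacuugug
let-7a-2-3p, in Mir100hg, chr9:41536777-41536797, plus strand: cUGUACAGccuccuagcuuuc
miR-125b-5p, in Mir100hg, chr9:41581940-41581961, plus strand: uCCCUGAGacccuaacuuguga

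No pair of these sequences shares a seed, even where the same gene holds both. Mir22hg, the host of miR-22, which is abundant in heart and skeletal muscle, was at 57.3, 66.9 and 56.0 TPM in knockout and 89.5, 77.6 and 106.8 TPM in control. All control libraries were above all knockout libraries, by 1.52-fold in the means (60.1 ± 5.98 against 91.3 ± 14.7 TPM, SD, n = 3 each), with a log2 difference of -0.59 ± 0.14 and a limma adjusted p of 0.209.

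Lincmd1, a muscle long noncoding RNA that also holds the hairpins of the muscle microRNAs miR-206 and miR-133b, was at 33.0, 37.0 and 29.6 TPM in knockout and 25.7, 25.1 and 34.9 TPM in control. The groups overlapped through 1 high control library (0.22 ± 0.15, limma adjusted p = 0.585). Of the 8 tested genes of the microRNA host list, 5 were below 0 and 3 above with a median of -0.24. Mir22hg was the 1 whose groups did not overlap. For comparison, 64.5% of all tested accessions were below 0 and 15.3% were separated downwards.

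Of the 6 small structured RNAs, the 3 snoRNAs had log2 differences below 0, and Rn7sk and the identical copies Rn7s1 and Rn7s2, made by RNA polymerase III, had differences above 0. None of the 6 passed the adjusted test in limma, the groups of 4 overlapped, and Snord82 and Snord49a had knockout means under 5 TPM and so passed through the control libraries. The sequences of the snoRNAs are shown because their identity rests on short boxes: the C and D boxes of box C/D snoRNAs, which guide 2′-O-methylation, and the ACA box near the end of H/ACA snoRNAs, which guide pseudouridylation. Sequences are GENCODE M21 transcripts, a few bases longer than the RefSeq spans given, and capitals mark these boxes.
Snord82, chr1:86356260-86356327, minus strand: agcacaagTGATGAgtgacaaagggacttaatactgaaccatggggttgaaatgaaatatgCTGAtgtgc
Snord49a, chr11:62603460-62603521: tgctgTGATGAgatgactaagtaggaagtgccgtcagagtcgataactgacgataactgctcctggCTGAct
Snora28, chr12:111540946-111541067, plus strand: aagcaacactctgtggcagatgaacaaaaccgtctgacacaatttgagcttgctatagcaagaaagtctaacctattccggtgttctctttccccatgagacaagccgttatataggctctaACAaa

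Snora28 was at 6.74, 5.12 and 6.95 TPM in knockout and 10.8, 11.1 and 10.5 TPM in control, without overlap (-0.71 ± 0.13, limma adjusted p = 0.153). It lies within the span of the translation initiation factor gene Eif5, which was at 78.1, 80.3 and 67.9 TPM in knockout and 85.4, 95.6 and 84.4 TPM in control (-0.23), also without overlap but with a smaller difference.

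Snord82 was at 3.82, 6.74 and 4.37 TPM in knockout and 8.71, 10.6 and 11.7 TPM in control (-0.95 ± 0.20, limma adjusted p = 0.179). Its host Ncl, the gene of nucleolin, was at 44.4, 43.8 and 40.2 TPM in knockout and 42.4, 49.3 and 43.4 TPM in control, so the host overlapped between groups (-0.07) where the snoRNA did not. Snord49a was at 2.09, 3.36 and 4.79 TPM in knockout and 11.0, 4.36 and 5.01 TPM in control, which overlap, with 1 control library far above the rest. Its host 2410006H16Rik differed by 0.11, as given above. Reads from a snoRNA and from the unspliced intron around it cannot be told apart in these values.

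**Figure D5:**
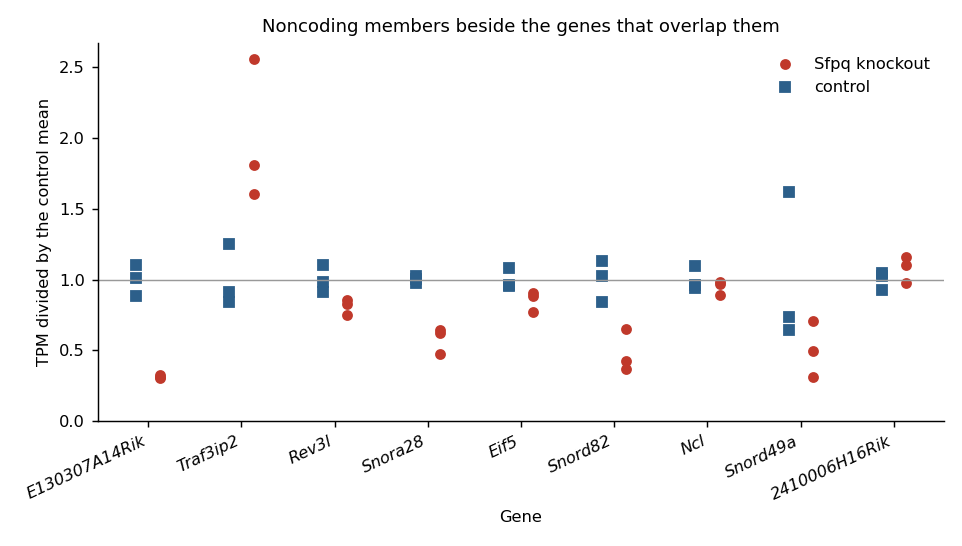
TPM in each library divided by the mean of the control libraries, for E130307A14Rik and 3 snoRNAs beside the genes that overlap or host them; red circles are knockout, blue squares control, and the line marks the control mean. E130307A14Rik lies at 0.302 to 0.327 and Traf3ip2 at 1.60 to 2.56 in knockout.

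Rn7sk, the 7SK RNA that holds the elongation factor P-TEFb inactive, was at 182.0, 111.1 and 123.5 TPM in knockout and 79.8, 117.0 and 110.7 TPM in control, overlapping (0.42 ± 0.22). Rn7s1 and Rn7s2, the genes of the 7SL RNA of the signal recognition particle, are identical over 300 bases and had values within 1% of each other, so they count as 1 RNA. Rn7s1 was at 77.8, 40.5 and 64.1 TPM in knockout and 26.3, 45.3 and 35.4 TPM in control, overlapping by 1 library on each side (0.74 ± 0.28, limma adjusted p = 0.375). The list of small structured RNAs had 5 tested genes, which are 4 RNAs with the 7SL copies taken as 1, and all 4 were above 0. Among them was Rmrp, the RNA of the RNase MRP enzyme, at 2.68, 2.58 and 4.47 TPM in knockout and 0.994, 1.64 and 1.13 TPM in control (0.89). Rpph1, also among them, was at 2.20, 0.641 and 1.89 TPM in knockout and 0, 0.692 and 1.36 TPM in control, overlapping. RNAs of this kind normally carry no polyA tail, so their levels in polyA libraries need not follow their amounts in the cell.

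Most of the known long noncoding RNAs had overlapping groups. Norad, which binds Pumilio proteins, was at 69.6, 65.3 and 62.9 TPM in knockout and 65.5, 78.8 and 65.9 TPM in control (-0.08), and Tug1 was at 17.1, 13.1 and 14.8 TPM against 13.2, 17.6 and 14.8 TPM (-0.02). Firre, which organises nuclear domains from the X chromosome, was at 14.02, 12.8 and 12.9 TPM in knockout and 16.2, 13.5 and 16.4 TPM in control (-0.19), with 1 overlapping library. The imprinted Peg13 differed by 0.18 with overlap. Of 13 tested genes on the list of other well-known long noncoding RNAs, 11 were below 0, and Oip5os1 and Cep83os (-0.42) were the 2 whose groups did not overlap, beside 15.3% of all tested accessions separated downwards and 64.5% below 0.

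Pseudogenes held the largest share of the members' TPM, with a summed 3413 to 3800 TPM in knockout and 3556 to 3776 TPM in control. Of the 55, 39 were below 0, 6 were separated downwards and 0 upwards, with a median of -0.07. Over all tested accessions 64.5% were below 0, 15.3% separated downwards and 4.27% upwards, so the share of pseudogenes separated downwards (10.9%) was not above that of all accessions. The most abundant was Ubb-ps, a processed copy of the ubiquitin gene Ubb, at 1012, 897 and 936 TPM in knockout and 866, 1055 and 850 TPM in control (0.04). Oaz1-ps, a copy of the antizyme gene Oaz1, was at 402, 490 and 498 TPM in knockout and 492, 469 and 563 TPM in control (-0.14), and Gm9385 at 288, 275 and 301 against 292, 285 and 297 TPM (-0.02). Of 17 pseudogenes with a tested parent gene of the matching name, 14 differed in the same direction as the parent. Pisd and Rps15a were each the parent of more than 1 of them. The share of unrelated pairs that differ in the same direction was not counted. Reads of pseudogene copies can be assigned to the copy or to the parent, so these levels are uncertain.

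Gm12070 was the abundant pseudogene whose groups were separated, at 196.6, 250.9 and 245.9 TPM in knockout and 298.0, 255.2 and 270.2 TPM in control (-0.25, limma adjusted p = 0.452). The pseudogene Rps4l had the lowest log2 difference of all members, -2.03 ± 0.80, from 0.184, 2.81 and 0.744 TPM in knockout and 3.58, 3.08 and 27.4 TPM in control. Its mean and its fold rest on 1 control library, and the gap between the groups was 2.81 to 3.08 TPM. Erdr1, listed on 2 rows, ranged from 0.742 to 78.2 TPM among the knockout libraries on 1 of them.

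The 5 members whose gene is protein-coding in the tables were all below 0 (median -0.17), and in all 5 the groups overlapped. Among them are Mtln, which encodes the mitochondrial micropeptide mitoregulin and was at 55.1, 80.4 and 54.0 TPM in knockout and 76.0, 48.9 and 73.6 TPM in control, and 1810058I24Rik, at 120.5, 139.7 and 152.4 TPM in knockout and 125.6, 205.1 and 142.3 TPM in control (-0.17). The 77 members without a gene name had a median of -0.09, with 48 below 0, 5 separated downwards and 5 upwards. Among all tested accessions 64.5% were below 0, 15.3% were separated downwards and 4.27% upwards.

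Matching members named as opposite-strand transcripts to the protein-coding gene of the same stem gave 14 pairs, matched by name. In 8 of the 14 the annotated spans overlap. In 6 of all 14 pairs the member and its partner differed in the same direction, and in 5 the partner was too low to be tested. The remaining pairs differed in opposite directions. Fam120aos was at a mean of 5.74 TPM beside 97.97 TPM for Fam120a, and Rab10os at 6.10 TPM beside 140.7 TPM for Rab10, while Lppos at 13.8 TPM and Hectd2os at 7.51 TPM stood above Lpp (2.19 TPM) and Hectd2 (2.18 TPM). Members were thus found on both sides of their partners.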

How the data were processed

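PolyA RNA of 6 libraries, 3 SFPQ_KO and 3 Cont, was compared, with groups taken from the titles. The authors deposited TPM for each RefSeq accession in each library, and these sum to 1000000. Per the submitters' processing notes, STAR 2.4.1d and mm10 were used. How reads were counted, with which annotation release and whether by strand, was not stated in the sources used here.

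Accessions were named through the RefSeq gene table of GRCm38.p6 (185 members) and GENCODE (7). The 12464 accessions that reached 1 TPM in 3 or more libraries entered the test on log2(TPM + 1), which understates changes of low genes, with limma 3.58.1 in R 4.3.3, intensity trend, no block, 2-sided, with Benjamini-Hochberg adjustment at 0.05 over all of them. No count model was used. Python 3.11.15, pandas 2.3.3 and matplotlib 3.10.9 joined and plotted the data. The fit was tested on simulated data.

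The members, gene lists and tests were chosen with earlier results of these data known. Named were all snoRNA hosts, the 10 most abundant members, up to 10 per direction with the smallest p, those on the noncoding lists, E130307A14Rik and 2610035D17Rik, and up to 4 per companion list; Lincmd1, Brip1os, Oip5os1, Norad, Tug1, Rps4l, Erdr1, Mtln and the overlapping genes were added after their values were seen. Alternatives covered the pseudocount (0.1, 5), filters, scaling, the trend, robust moderation, a replicate block, summed accessions, the mean threshold (2, 10) and each library left out.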

Additional observations from a re-analysis of the deposited data

How the results depend on the processing

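No noncoding member passed the adjusted threshold in limma except under 3 alternatives. With a pseudocount of 5, 2 accessions were called higher and 11 lower over all accessions, with a mean of at least 5 TPM as the filter 1 and 6, and without the intensity trend 1 and 1. In each of these 1 member was called lower, E130307A14Rik (log2 -0.77, -1.34 and -1.34, limma adjusted p = 0.0431, 0.0445 and 0.0449). Its limma adjusted p ranged from 0.0431 to 0.389 over 16 alternatives. The gene had been singled out by earlier results of these data and passed the rule only through its control libraries. These calls are therefore given as a description.

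The median of the members became 0.018 with median-of-ratios scaling and 0.0081 with quantile normalization, and the median of the snoRNA hosts 0.23 and 0.25, with 16 of 16 hosts above 0 in both. Quantile normalization gave 17 members separated downwards and 26 upwards, without a count over all accessions beside them. At a mean of at least 2 TPM, 329 members were below 0, 56 separated downwards and 34 upwards. At a mean of at least 10 TPM, which 163 members reached, these were 97, 9 and 5. The number of members at 2 TPM is not given here, so the counts at that threshold cannot be read as shares.

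Leaving out each library in turn gave 0 adjusted calls, 146 to 178 members below 0, a member median of -0.093 to -0.027, a host median of 0.083 to 0.18 (lowest without SFPQ_KO replicate 1), and 33 to 55 members separated downwards and 17 to 38 upwards, which fewer libraries make easier. Of 51 named genes, 12 changed sign in some alternative, and none of the 12 was called in any. Scaling moved Gas5 to 0.034 and 0.041, Snhg3 to 0.048 and 0.073, Gm9385 to 0.068 and 0.023, and an unnamed accession to 0.044 and 0.0081 (median-of-ratios, then quantile). Leave-one-out ranges were -0.14 to 0.031 for Gas5, -0.080 to 0.20 for Snhg1, -0.13 to 0.034 for Snhg3, -0.066 to 0.28 for Snhg6, -0.086 to 0.45 for Snhg16, -0.11 to 0.13 for Snhg12, -0.057 to 0.053 for Snhg15, -0.014 to 0.14 for Ubb-ps, -0.048 to 0.017 for Gm9385, -0.12 to 0.038 for that accession, -0.032 to 0.096 for Gm15772 and -0.32 to 0.034 for 1810058I24Rik. The cause was not tested.

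Libraries with the same replicate number did not deviate together (r = -0.26, -0.25 and 0.05), and unlike numbers gave r from -0.27 to 0.41. Deviations from a mean of 3 libraries depend on each other, so these values cannot show whether the numbers pair the libraries. With the replicate block, 0 members were called and the member median stayed at -0.06. TPM keeps no depth, so precision rests on 3 libraries per group.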
